A study of Mus musculus with 6 samples.

Results

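The genes of fatty acid uptake and mitochondrial beta-oxidation were examined in heart RNA of Mc4r KO and WT mice. They are 35 genes of 54532 in the deposited table, chosen by symbol: proteins that bring fatty acids into the cell, enzymes that activate them and import them into mitochondria, the enzymes of the oxidation cycle, and the enzymes around it. All 35 were in the table and all 35 passed the filter on low values. Between the genotypes, 0 of 35 passed the test over the 6 libraries. Fabp3, which encodes the fatty acid binding protein of heart muscle, had the smallest p and was 1.79 times as high in the Mc4r KO mice. Without the library WT 3, which stood apart from the other WT libraries, Fabp3, Cpt1b and Etfb passed the test. The share of all genes that passed then rose from 0.460% to 4.04%. Other genes on the same strand cover most of the exonic bases of Cpt1b and Etfb.

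The series holds 6 libraries of polyadenylated RNA, 1 per mouse, from 3 Mc4r KO and 3 WT mice of 12 weeks. The Mc4r KO mice were homozygous for a knockout of the melanocortin-4 receptor in a purchased line, and the WT mice were littermates from matings of heterozygotes. Both groups had the C57B/6/N background and ate standard chow. The labels name the tissue as heart in the source and as muscle in the title, the discussion of the study speaks of the left ventricle and of male mice, and the RNA is of tissue and not of isolated cells. The melanocortin-4 receptor acts mainly in the brain, where its loss increases food intake, and the sources name no promoter or cell type to which the knockout is limited. The study asked what the loss of the receptor changes in the heart before cardiac function is impaired. It reports that at 12 weeks the Mc4r KO mice were heavier than WT and had cardiomyocytes of larger cross-section. Body weight therefore cannot be told apart from the genotype here.

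The adult heart takes most of its energy from fatty acids. They enter through CD36 and transport proteins, are bound by FABP3 in the cytosol, are coupled to coenzyme A by acyl-CoA synthetases, and cross the mitochondrial membranes as carnitine esters. In the matrix a cycle of dehydrogenation, hydration, renewed dehydrogenation and thiolysis shortens the chain, and electrons pass through the electron transfer flavoprotein to the respiratory chain. Malonyl-CoA inhibits the carnitine step. Nuclear receptors of the PPAR and ERR families regulate many of these genes and bind elements built on the core motif AGGTCA.

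Promoters of 4 of these genes are shown: Fabp3 has the smallest p, Acadvl and Cpt1a hold the core motif and lie on opposite sides of no change, and Hadhb shares its promoter with a neighbour. The sequences are RefSeq promoters on GRCm38.p6, from 250 bases before the start to 50 bases after it, read 5′ to 3′ on the strand of the gene. Capitals mark the core motif in Acadvl and Cpt1a. In Hadhb they mark the 228 bases that also lie in the window of Hadha, which encodes the other subunit of the trifunctional protein and is read in the opposite direction. The windows are chr4:130308488-130308787 on the plus strand for Fabp3, chr11:70015379-70015678 on the minus strand for Acadvl, chr19:3323051-3323350 on the plus strand for Cpt1a, and chr5:30155003-30155302 on the plus strand for Hadhb.
Fabp3: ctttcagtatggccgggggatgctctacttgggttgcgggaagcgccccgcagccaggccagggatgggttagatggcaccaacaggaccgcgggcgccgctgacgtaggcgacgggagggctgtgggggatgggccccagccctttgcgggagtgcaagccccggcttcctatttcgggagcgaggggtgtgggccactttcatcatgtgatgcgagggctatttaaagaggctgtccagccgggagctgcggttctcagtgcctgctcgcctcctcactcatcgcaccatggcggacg
Acadvl: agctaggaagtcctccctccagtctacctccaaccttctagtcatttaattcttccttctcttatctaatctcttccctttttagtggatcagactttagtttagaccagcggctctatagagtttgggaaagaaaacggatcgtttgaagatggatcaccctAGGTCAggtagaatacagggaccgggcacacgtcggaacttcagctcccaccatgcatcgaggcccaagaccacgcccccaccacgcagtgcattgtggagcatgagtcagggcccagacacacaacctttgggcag
Cpt1a: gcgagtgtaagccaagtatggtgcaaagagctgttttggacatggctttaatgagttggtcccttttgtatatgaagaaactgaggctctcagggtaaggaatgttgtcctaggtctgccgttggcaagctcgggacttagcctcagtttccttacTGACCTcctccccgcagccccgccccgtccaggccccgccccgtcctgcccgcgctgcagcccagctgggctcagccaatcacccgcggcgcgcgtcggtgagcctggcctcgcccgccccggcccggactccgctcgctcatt
Hadhb: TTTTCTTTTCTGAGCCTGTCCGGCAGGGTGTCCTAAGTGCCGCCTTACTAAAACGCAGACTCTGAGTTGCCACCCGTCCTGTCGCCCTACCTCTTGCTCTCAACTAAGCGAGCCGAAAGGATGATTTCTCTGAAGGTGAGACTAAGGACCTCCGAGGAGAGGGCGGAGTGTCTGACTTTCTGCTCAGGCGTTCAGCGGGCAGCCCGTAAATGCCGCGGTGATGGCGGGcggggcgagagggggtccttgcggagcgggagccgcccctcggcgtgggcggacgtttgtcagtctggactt
In Acadvl the core motif began 87 bases before the start in the direction of the gene, and in Cpt1a 94 bases before it on the opposite strand. A RefSeq promoter was found for 30 of the 35 genes. The core motif AGGTCA, searched on both strands, was in a window of 6 of these 30 genes (20%), which were Acacb, Acadm, Acadvl, Cd36, Cpt1a and Echs1. It was in 18.1% of all 27025 genes of the promoter table, so its frequency in the fatty acid genes was close to that of all genes. The ERR element TCAAGGTCA, which contains the core motif, was in 0 of 30 and in 0.466% of all genes. DR1, a PPAR element of 2 core motifs with 1 base between them, was in 0 of 30 and in 0.0481% of all genes. All these motifs were searched without mismatch. In this exact form the ERR element and DR1 were so rare among all genes that 0 of 30 says little about the fatty acid genes. A match of letters is no evidence of a bound factor, and its absence concerns exact matches in these windows only.

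The reads counted on genes were between 14691076 and 16047003 per library, and each of the 35 genes had between 18 and 69991 of them in a library. Mitochondrially encoded genes took 34.9%, 32.6% and 26.3% of the reads in WT 1, 2 and 3 and 23.3%, 25.8% and 23.4% in Mc4r KO 1, 2 and 3, so this share did not overlap between the groups and cannot be told apart from the genotype. Mc4r had 2 reads in 1 library and 0 in the others, below a floor of 3 reads, so the knockout could not be checked in this tissue. Of the heart muscle markers 12 of 12 were detected and 0 were called, with Myh6 between 2231 and 3082 FPKM. This is the deposited unit of fragments per kilobase of gene, already scaled between libraries. Sums over the heart muscle markers follow. Their summed FPKM was between 21293 and 22762 in WT and between 25724 and 27949 in Mc4r KO, without overlap, and 10 of the 12 were higher by sign. The fibroblast markers summed to between 264 and 300.4 in WT and between 209.6 and 246 in Mc4r KO, and 7 of 10 were lower by sign. WT 3 stood apart in atrial markers, whose summed FPKM was 848 there and between 25.4 and 166 in the other libraries. The erythrocyte markers summed to 4503 in WT 1, 861 in WT 2 and 6353 in WT 3, and to between 621 and 1654 in the Mc4r KO libraries. Of the adipocyte markers, Lep, Retn and Ucp1 were at 0 in all libraries, Adipoq did not exceed 0.128 FPKM, and 0 of the 5 tested were called, with a median log2 fold change of 0.76. The 3 genes of this list without overlap between the groups, named after their values were seen, were Cidea, from 12.1 to 15.7 FPKM in WT and from 19.3 to 27.03 in Mc4r KO (adjusted p 0.0791), Pnpla3, from 0.183 to 0.360 in WT and from 0.850 to 1.498 in Mc4r KO (adjusted p 0.0578), and Cfd, from 0.385 to 0.831 in WT and from 0 to 0.210 in Mc4r KO (adjusted p 0.1003). Among all genes tested, 14.1% were higher without overlap and 12.4% were lower without overlap. The adipocyte list also holds Lpl, which heart muscle expresses and which was between 361 and 535 FPKM. Of the skeletal muscle markers Myh4 and Tnnc2 were at 0 in all libraries. The counts of called genes were also 0 of 10 for fibroblast, 0 of 12 for endothelial, 0 of 8 for atrial and 0 of 8 for erythrocyte markers. With 0.460% of all genes tested called, counts of 0 in lists this small say little. Without overlap between the groups, 6 of 12 heart muscle and 3 of 12 endothelial markers were higher. By the same count 3 of 10 fibroblast and 1 of 8 erythrocyte markers were lower, and 0 of 8 atrial markers were either. The part of these cells in the results below was not tested, and in tissue RNA fewer cells of a type and less RNA per cell cannot be told apart.

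The 35 genes were compared with limma on log2(FPKM + 0.1), a scale that understates the change of weakly expressed genes, and a call needed both a Benjamini-Hochberg adjusted p under 0.05 and a log2 fold change beyond 0.75 in either direction. Over all 18035 genes tested, 83 were called, or 0.460%, and 105 had an adjusted p under 0.05, or 0.582%. Of the fatty acid genes 0 of 35 did either, and their adjusted p lay between 0.116 and 0.925. By sign, 27 of them had a positive and 8 a negative difference of Mc4r KO from WT, with a median log2 fold change of 0.14, against -0.011 for all genes tested. An unadjusted p under 0.05 was found for 6 higher genes (Fabp3, Slc22a5, Acadvl, Acads, Eci2 and Acaa1a) and for 2 lower genes (Acsl3 and Cpt1a). Among all genes tested, 12.0% had such a p and were higher and 8.83% were lower. The 3 values of each genotype did not overlap for 6 higher genes (Fabp3, Slc22a5, Acads, Eci2, Etfa and Acaa1a) and for 2 lower genes (Acsl3 and Hadh), while the shares over all genes tested were 14.1% and 12.4%. By either count the higher genes were 17.1% and the lower genes 5.71% of the 35, counts too small to set apart from the shares over all genes tested. The interval of the log2 fold change at 95% was within 0.75 on either side of 0 for 27 of the genes, but reached past it for Fabp3, Acsl3, Cpt1a, Cpt1b, Etfb, Acot1, Acot2 and Mlycd, for which the libraries leave a change of that size undecided.

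**Figure D1:**
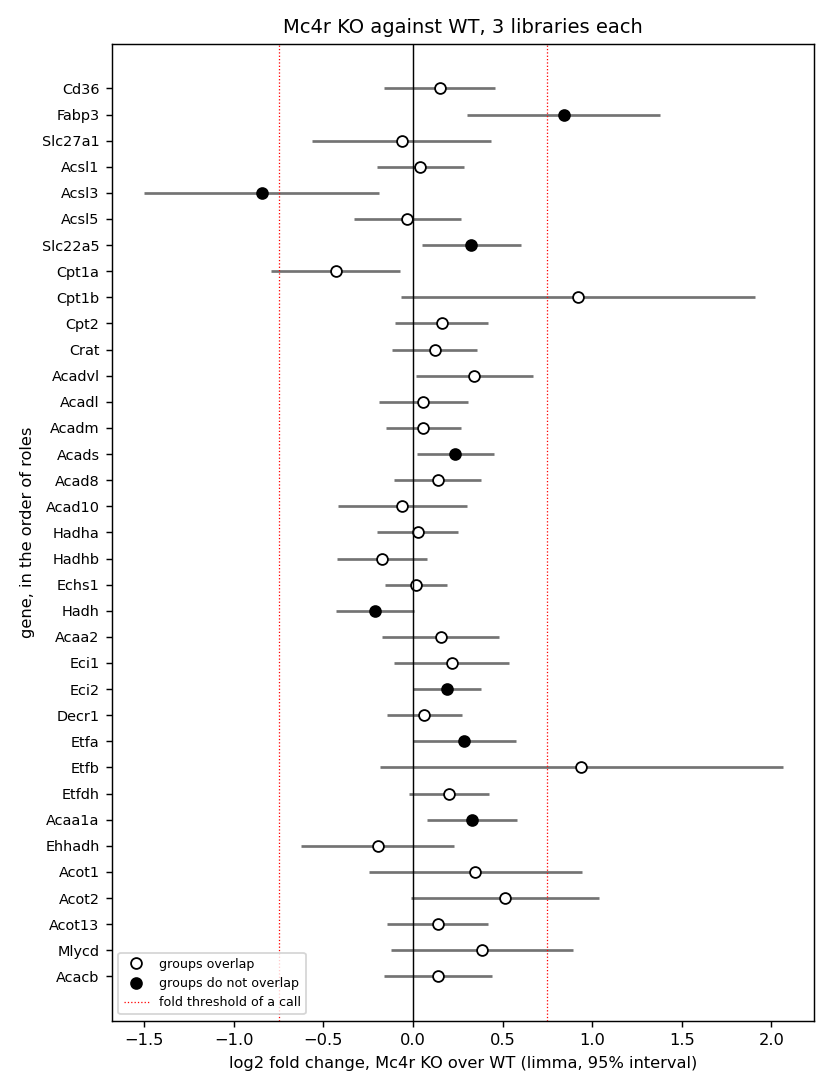
Log2 fold change of Mc4r KO over WT (x axis, limma on log2(FPKM + 0.1)) for the 35 genes in the order of their roles (y axis), with 95% intervals as bars and filled points for genes whose 3 libraries per genotype do not overlap. Of the 35 points 27 lie above 0, Fabp3 stands at 0.84 and Acsl3 at -0.85, and the bars of Cpt1b and Etfb are the widest.

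As a group the genes overlapped between the genotypes, except in their summed level. The median deviation of the 35 genes from their own mean over the 6 libraries, on the log2 scale, was -0.15, -0.023 and 0.023 in WT 1, 2 and 3 and -0.036, 0.075 and 0.16 in Mc4r KO 1, 2 and 3. Mc4r KO 1 thus lay below WT 2 and WT 3. The summed FPKM of the 35 genes was 6009, 6353 and 7566 in WT 1, 2 and 3 and 8031, 9045 and 9929 in Mc4r KO 1, 2 and 3, which did not overlap. Fabp3 made up 36.2%, 35.8% and 44.9% of this sum in WT and 49.4%, 50.8% and 53.4% in Mc4r KO. Without Fabp3 the sums were 3831, 4079 and 4169 in WT and 4065, 4453 and 4628 in Mc4r KO, and here Mc4r KO 1 lay within the WT range.

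**Figure D2:**
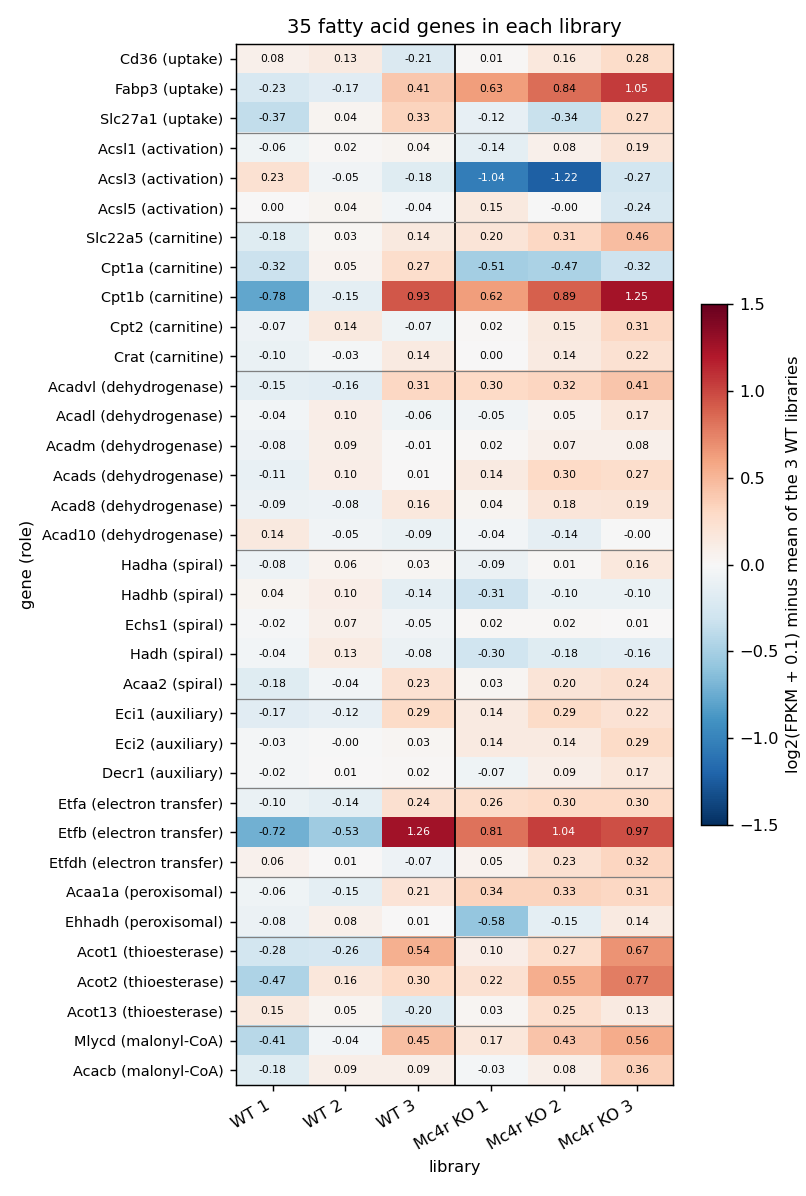
Log2(FPKM + 0.1) of each of the 35 genes (y axis, with its role) in each of the 6 libraries (x axis), minus the mean of the 3 WT libraries, with the difference printed in each cell and red for higher. Fabp3 is red in the 3 Mc4r KO libraries, Acsl3 is blue in them, and Cpt1b and Etfb are red in WT 3 as well as in Mc4r KO.

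Of the 3 uptake genes, Fabp3 was higher in Mc4r KO and Cd36 and Slc27a1 overlapped between the genotypes. Fabp3 (chr4:130308595-130315463, plus strand, mm10) was by far the most abundant of the 35 genes, at 2177, 2274 and 3398 FPKM in WT 1, 2 and 3 and at 3966, 4592 and 5301 FPKM in Mc4r KO 1, 2 and 3. All 3 Mc4r KO libraries lay above all 3 WT libraries, and WT 3 was the highest of the WT. This gave a log2 fold change of 0.84 (SE 0.23, n = 3 per genotype) with an adjusted p of 0.116 by limma. Fabp3 was called without WT 3 (log2 fold change 1.04, adjusted p 0.0167), with weights for each library (0.94, adjusted p 0.0410) and by limma voom on the recovered reads (0.88, adjusted p 0.0432). Over all alternatives its adjusted p ranged from 0.0167 to 0.702, and the highest came with the share of mitochondrial reads as a covariate, under which the log2 fold change was 0.34. Exons of Gm10570 and Zcchc17 on the opposite strand cover 19.6% of the exonic bases of Fabp3, and both had low values, at most 0.851 and 5.26 FPKM. Of its 50-base words 37.3% also occur in other genes, among them the pseudogene Fabp3-ps1, which was at 19.8, 28.8 and 27.2 FPKM in WT and 30.1, 37.8 and 41.2 FPKM in Mc4r KO. Cd36, the fatty acid translocase of the plasma membrane, was between 413 and 525 FPKM in WT and between 483 and 579 in Mc4r KO. Slc27a1, a fatty acid transport protein with acyl-CoA synthetase activity, was between 20.5 and 33.5 FPKM in WT and between 21.03 and 32.0 in Mc4r KO.

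Of the 3 acyl-CoA synthetases, Acsl3 was lower in Mc4r KO and Acsl1 and Acsl5 overlapped. Acsl1, the main long-chain synthetase of the heart, was at 89.9, 95.3 and 96.3 FPKM in WT 1, 2 and 3 and at 84.8, 99.2 and 107 FPKM in Mc4r KO 1, 2 and 3. Its log2 fold change was 0.042 (SE 0.10, adjusted p 0.855), with an interval from -0.20 to 0.29. Acsl3, a synthetase of the endoplasmic reticulum and of lipid droplets, was at 1.498, 1.21 and 1.11 FPKM in WT and at 0.562, 0.483 and 1.03 FPKM in Mc4r KO. The groups did not overlap, but Mc4r KO 3 lay close to WT 3. Limma gave a log2 fold change of -0.85 (SE 0.28, adjusted p 0.157). Acsl5, a synthetase of the mitochondrial outer membrane, was between 3.55 and 3.76 FPKM in WT and between 3.08 and 4.07 in Mc4r KO.

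The 5 genes of the carnitine shuttle differed in direction. Slc22a5, the carnitine transporter of the plasma membrane, was at 7.90, 9.14 and 9.89 FPKM in WT 1, 2 and 3 and at 10.3, 11.1 and 12.3 FPKM in Mc4r KO 1, 2 and 3. The Mc4r KO libraries lay above the WT libraries, Mc4r KO 1 by little. Its log2 fold change was 0.32 (SE 0.12, adjusted p 0.188), and 26.3% of its 50-base words also occur in other genes such as Slc22a21. Cpt1a, the liver form of the carnitine palmitoyltransferase of the outer membrane, was at 13.8, 17.8 and 20.7 FPKM in WT and at 12.0, 12.4 and 13.8 FPKM in Mc4r KO. Mc4r KO 3 was level with WT 1, so the groups overlapped, and WT 2 and WT 3 lay above all Mc4r KO libraries. Its log2 fold change was -0.43 (SE 0.15, adjusted p 0.179), and -0.30 without WT 3. Cpt2, the carnitine palmitoyltransferase of the inner membrane, was at 99.6, 116 and 99.9 FPKM in WT and at 106, 116 and 130.3 FPKM in Mc4r KO, with a log2 fold change of 0.16 (SE 0.11, adjusted p 0.454). Crat, the carnitine acetyltransferase, was between 93.9 and 111 FPKM in WT and between 101 and 118 in Mc4r KO.

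Cpt1b, the muscle form of the outer membrane enzyme, was named here after its values were seen. It had 18, 31 and 84 reads in WT 1, 2 and 3 and 61, 73 and 100 reads in Mc4r KO 1, 2 and 3, or 0.379, 0.640 and 1.46 FPKM and 1.17, 1.42 and 1.85 FPKM. WT 1 and WT 2 were below all Mc4r KO libraries, and WT 3 was within their range. This gave a log2 fold change of 0.92 (SE 0.42, adjusted p 0.267), 1.39 without WT 3 (adjusted p 0.0354) and -0.32 with the share of mitochondrial reads as a covariate. Exons of Gm44502, a read-through gene on the same strand that was at 0 in all libraries, cover 81.4% of the exonic bases of Cpt1b in GENCODE M21, and 628 of 3372 bases lie outside them. How reads in shared exons were counted is not given in the sources used here, and the FPKM of Cpt1b is not comparable with that of genes without such an overlap. The ratio of Cpt1a to Cpt1b can therefore be compared between libraries only, and its size does not show which form was more abundant. This ratio was 36.3, 27.9 and 14.1 in WT and 10.3, 8.69 and 7.46 in Mc4r KO. The groups did not overlap, and the mean log2 ratio of Mc4r KO minus that of WT was -1.47, with an exact two-sided permutation p of 0.1, the smallest that 3 against 3 libraries allow, and 0.3 after adjustment over the 3 ratios examined.

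Of the 6 acyl-CoA dehydrogenase genes, Acads was higher in all 3 Mc4r KO libraries and the other 5 overlapped. Acadvl, the very-long-chain enzyme, was at 129.7, 129 and 178 FPKM in WT 1, 2 and 3 and at 177, 179.5 and 191 FPKM in Mc4r KO 1, 2 and 3. WT 1 and WT 2 were low and WT 3 was above Mc4r KO 1. Limma gave a log2 fold change of 0.34 (SE 0.14, adjusted p 0.225) and 0.50 without WT 3 (adjusted p 0.0157). Exons of Dvl2 on the opposite strand cover 42.9% of its exonic bases, and Dvl2 was at most 1.17 FPKM. Acadl, the long-chain enzyme and the most abundant of this family, was at 437, 481 and 430.4 FPKM in WT and at 433, 466 and 505 FPKM in Mc4r KO. The groups overlapped, and the log2 fold change was 0.058 (SE 0.11, adjusted p 0.797). Acads, the short-chain enzyme, was at 76.0, 88.1 and 82.4 FPKM in WT and at 90.3, 101 and 98.9 FPKM in Mc4r KO. Its groups did not overlap, with a gap of a few FPKM between WT 2 and Mc4r KO 1. Its log2 fold change was 0.24 (SE 0.092, adjusted p 0.208), and -0.019 when the trend with GC content was removed from each library. Acadm, the medium-chain enzyme, was between 269 and 302 FPKM in WT and between 287 and 300 in Mc4r KO. Acad8, which acts on isobutyryl-CoA from valine, was between 8.47 and 10.1 FPKM in WT and between 9.27 and 10.3 in Mc4r KO, and Acad10 was between 0.997 and 1.19 FPKM in WT and between 0.965 and 1.07 in Mc4r KO.

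Of the 5 genes of the later steps of the cycle, Hadh was lower in all 3 Mc4r KO libraries. Hadh, the hydroxyacyl-CoA dehydrogenase of medium and short chains, was between 129 and 149 FPKM in WT and between 110.3 and 122 in Mc4r KO. Its log2 fold change was -0.21 (SE 0.093, adjusted p 0.249). Acaa2, the mitochondrial thiolase, was the most abundant of the 5, at 501, 553 and 668 FPKM in WT 1, 2 and 3 and at 580.3, 653 and 672 FPKM in Mc4r KO 1, 2 and 3. WT 3 was as high as the Mc4r KO libraries, and the log2 fold change was 0.15 (SE 0.14, adjusted p 0.564). The 2 subunits of the trifunctional protein, which share the promoter region shown, were of opposite sign. Hadha was between 159 and 175 FPKM in WT and between 158 and 188 in Mc4r KO, with a log2 fold change of 0.026 (SE 0.097). Hadhb was between 198 and 234 FPKM in WT and between 176 and 203 in Mc4r KO, with a log2 fold change of -0.17 (SE 0.11, adjusted p 0.409). Each of these differences was within the spread between libraries. Echs1, the short-chain enoyl-CoA hydratase, was between 36.2 and 39.4 FPKM in WT and between 37.7 and 38.1 in Mc4r KO, and had the smallest absolute log2 fold change of the 35 genes, 0.017 (SE 0.074).

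The 3 auxiliary enzymes, which prepare unsaturated fatty acids for the cycle, were each higher by sign. Eci1, an enoyl-CoA isomerase of mitochondria, was at 184, 191 and 253 FPKM in WT 1, 2 and 3 and at 228, 254 and 241 FPKM in Mc4r KO 1, 2 and 3. WT 3 lay within the Mc4r KO range. This gave a log2 fold change of 0.22 (SE 0.14, adjusted p 0.416) and 0.36 without WT 3 (adjusted p 0.0387). Eci2, an isomerase found in peroxisomes and mitochondria, was at 20.3, 20.7 and 21.1 FPKM in WT and at 22.8, 22.8 and 25.3 FPKM in Mc4r KO. The groups did not overlap and the WT libraries were close to each other, with a log2 fold change of 0.19 (SE 0.080, adjusted p 0.236). Decr1, the dienoyl-CoA reductase, was between 101 and 104 FPKM in WT and between 98.1 and 116 in Mc4r KO.

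The 3 genes of electron transfer were higher by sign. Etfa, the alpha subunit of the electron transfer flavoprotein, was at 247, 239.6 and 313 FPKM in WT 1, 2 and 3 and at 317, 325 and 326 FPKM in Mc4r KO 1, 2 and 3. The groups did not overlap, and WT 3 was just below Mc4r KO 1. Limma gave a log2 fold change of 0.29 (SE 0.12, adjusted p 0.240) and 0.41 without WT 3 (adjusted p 0.0218). Etfb, the beta subunit, named after its values were seen, was at 18.3, 20.99 and 72.6 FPKM in WT and at 53.4, 62.4 and 59.6 FPKM in Mc4r KO. WT 3 was the highest of all libraries, and WT 1 and WT 2 were the lowest. Its log2 fold change was 0.94 (SE 0.48, adjusted p 0.313), 1.57 without WT 3 (adjusted p 0.00295) and -0.57 with the share of mitochondrial reads as a covariate. The read-through gene Gm45233, at 0 in all libraries, and Mir7051 lie on the same strand and together cover 58.2% of the exonic bases of Etfb. Etfdh, which passes the electrons to ubiquinone, was between 75.3 and 82.6 FPKM in WT and between 82.2 and 98.6 in Mc4r KO, with a log2 fold change of 0.20 (SE 0.095, adjusted p 0.283).

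**Figure D3:**
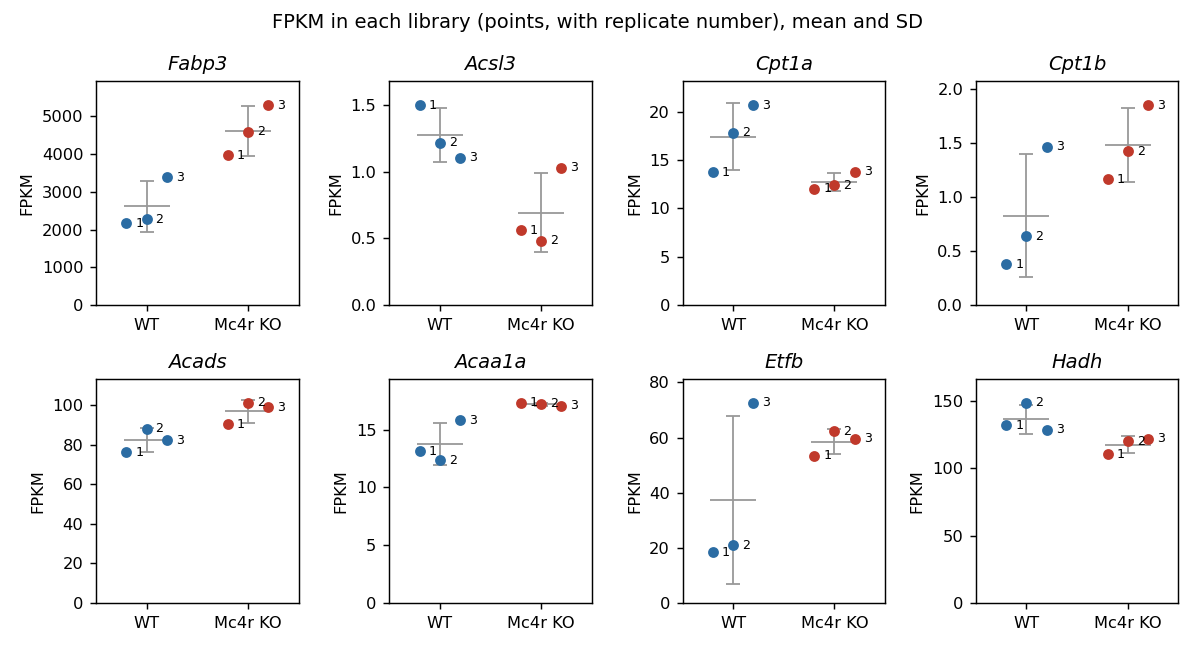
FPKM (y axis, from 0) of 8 of the genes in the 3 WT (blue) and 3 Mc4r KO (red) libraries, with the replicate number beside each point, the mean as a line and the SD as a bar. The 8 genes were picked for display without a rule. Of all 35 genes, 6 were higher and 2 lower without overlap. Fabp3, Acads and Acaa1a are higher in all Mc4r KO libraries, Acsl3 and Hadh are lower in all of them, and in Cpt1b and Etfb WT 3 lies apart from WT 1 and WT 2.

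Of the 2 peroxisomal genes, Acaa1a was higher in Mc4r KO and Ehhadh was lower by sign. Acaa1a, a peroxisomal thiolase, was at 13.1, 12.4 and 15.8 FPKM in WT 1, 2 and 3 and at 17.3, 17.2 and 17.1 FPKM in Mc4r KO 1, 2 and 3. The Mc4r KO libraries were almost equal and above all WT libraries, and WT 3 was the nearest. This gave a log2 fold change of 0.33 (SE 0.11, adjusted p 0.155) and 0.43 without WT 3 (adjusted p 0.0223), and 17.1% of its 50-base words also occur in genes such as Acaa1b. Ehhadh, the peroxisomal bifunctional enzyme, was between 4.40 and 4.93 FPKM in WT and between 3.09 and 5.14 in Mc4r KO, with a log2 fold change of -0.20 (SE 0.18, adjusted p 0.570).

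The 3 thioesterases, which release fatty acids from coenzyme A, were higher by sign and overlapped between the genotypes. Acot13, the most abundant, was at 268, 249 and 210.2 FPKM in WT 1, 2 and 3 and at 247, 287 and 264 FPKM in Mc4r KO 1, 2 and 3. WT 3 was the lowest of all libraries, and the log2 fold change was 0.14 (SE 0.12, adjusted p 0.552). Acot2, the mitochondrial form, was between 19.5 and 33.3 FPKM in WT and between 31.5 and 46.0 in Mc4r KO, with a log2 fold change of 0.51 (SE 0.22, adjusted p 0.248). Acot1, the cytosolic form, was between 3.02 and 5.39 FPKM in WT and between 3.96 and 5.93 in Mc4r KO, with a log2 fold change of 0.35 (SE 0.25, adjusted p 0.484). These neighbouring genes share 19.2% of the 50-base words of Acot1 and 27.7% of those of Acot2 with each other or with further genes, and how reads that match several of them were counted is not given in the sources used here. The mean log2 ratio of Acot1 to Acot2 differed by -0.16 between Mc4r KO and WT (exact permutation p 0.5, adjusted 0.5).

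The 2 genes that set malonyl-CoA, the inhibitor of the carnitine step, overlapped between the genotypes. Mlycd, the decarboxylase that removes it, was at 25.1, 32.6 and 45.7 FPKM in WT 1, 2 and 3 and at 37.6, 44.9 and 49.1 FPKM in Mc4r KO 1, 2 and 3. WT 3 lay within the Mc4r KO range, and the log2 fold change was 0.38 (SE 0.22, adjusted p 0.362). Acacb, the carboxylase that makes it at the mitochondrial membrane, was between 31.9 and 38.6 FPKM in WT and between 35.6 and 46.3 in Mc4r KO, with a log2 fold change of 0.14 (SE 0.13, adjusted p 0.573). The mean log2 ratio of Acacb to Mlycd differed by -0.25 (exact permutation p 0.4, adjusted 0.5).

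WT 3 was above both other WT libraries in 19 of the 35 genes (54.3%, against 36.8% of all genes tested) and below both in 10. It lay within the range of the Mc4r KO libraries in 17 of them (48.6%, against 40.5%). Its share of mitochondrial reads was 26.3%, against 34.9% and 32.6% in WT 1 and 2 and between 23.3% and 25.8% in Mc4r KO. The study also lists a lower GC content of the reads for WT 1 and 2 than for WT 3 and Mc4r KO. Without WT 3 both features follow the genotype more closely, and neither can be told apart from it. Without WT 3, 726 of 17966 genes were called, or 4.04%, and 1846 had an adjusted p under 0.05, or 10.3%. Of the 35 fatty acid genes 3 were then called, Fabp3, Cpt1b and Etfb, and 7 had an adjusted p under 0.05, the others being Acadvl, Eci1, Etfa and Acaa1a. All 7 were higher in Mc4r KO. GC content, taken from the longest transcript in GENCODE M21, moved with these differences. Over the 35 genes, whose GC content lay between 38.4% and 59.7%, Pearson's r of GC content with the difference of WT 3 from WT 1 and 2 was 0.51, and with the log2 fold change of Mc4r KO over WT it was 0.42. Over all genes tested these values were 0.22 and 0.25. The genes share the same libraries, so the correlations describe these libraries only and no test was made. With the trend removed from each library, the median log2 fold change of the 35 genes was 0.10 and 0 of 35 were called, an alternative chosen after seeing the data.

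**Figure D4:**
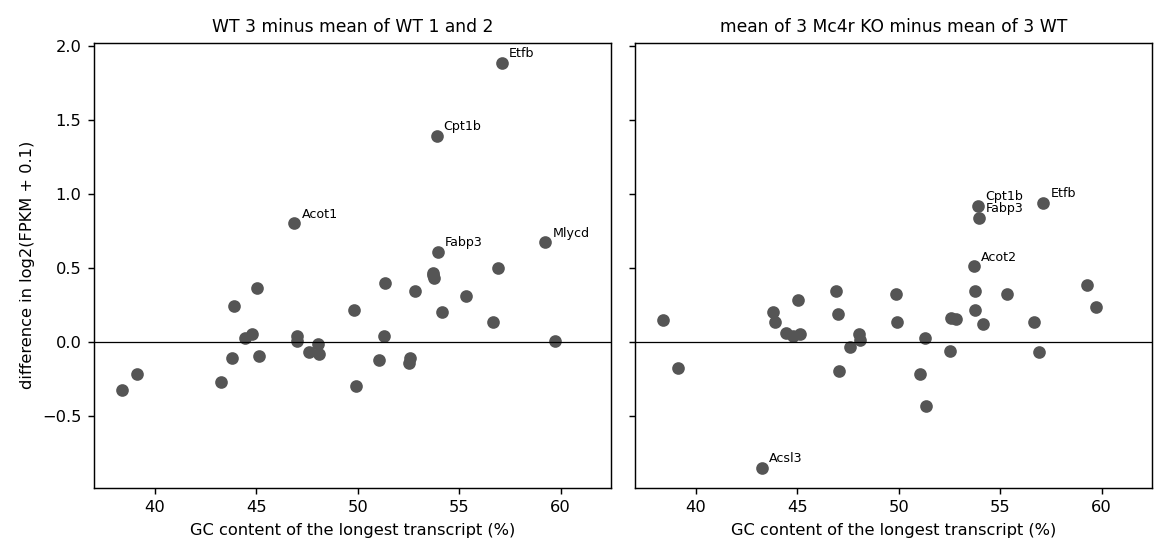
GC content of the longest transcript (x axis, %) against a difference in log2(FPKM + 0.1) (y axis) for the 35 genes, on the left WT 3 minus the mean of WT 1 and 2, on the right the mean of Mc4r KO minus the mean of WT. The 5 highest points on the left are Etfb, Cpt1b, Mlycd and Fabp3, with a GC content from 53.9% to 59.3%, and Acot1, with 46.9%, and r was 0.51 there, and r was 0.42 on the right.

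Other genes of the pathway were examined in the same fit. Of 36 tested further genes of fatty acid oxidation, 1 was called: Acot11, a thioesterase, was at 2.60, 2.44 and 3.08 FPKM in WT 1, 2 and 3 and at 4.98, 4.93 and 6.10 FPKM in Mc4r KO 1, 2 and 3. All Mc4r KO libraries were above all WT libraries, and the log2 fold change was 0.95 (SE 0.14, adjusted p 0.0445). This adjusted p was just under the threshold of 0.05, and the values of Acot11 under the alternatives are not given here. Of all genes tested 0.460% were called. By sign 21 of the 36 were higher and 15 lower, with a median log2 fold change of 0.072. Of the 18 PPAR-responsive genes, 6 of which are among the 35, 0 were called. The smallest p were those of Plin5, which coats lipid droplets in oxidative tissue, and of Slc25a20, the carnitine-acylcarnitine translocase between Cpt1b and Cpt2. Plin5 was at 31.4, 43.6 and 57.0 FPKM in WT and at 80.5, 93.2 and 109 FPKM in Mc4r KO (log2 fold change 1.13, SE 0.22, adjusted p 0.0718). Slc25a20 was at 32.3, 36.6 and 39.3 FPKM in WT and at 43.7, 47.8 and 54.96 FPKM in Mc4r KO (0.43, SE 0.12, adjusted p 0.114). Neither gene overlapped between the genotypes.

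Of 16 regulators of the pathway 0 were called. The smallest p were those of Hif1a, a subunit of the hypoxia-inducible factor, with a log2 fold change of -0.57 (SE 0.15, adjusted p 0.107), and of Ppargc1b, a coactivator of PPAR and ERR receptors, with 0.32 (SE 0.093, adjusted p 0.126). Esrra, which encodes ERR alpha and was named after its values were seen, was at 29.0, 31.6 and 64.8 FPKM in WT 1, 2 and 3 and at 71.9, 84.7 and 71.4 FPKM in Mc4r KO 1, 2 and 3. WT 3 was near the Mc4r KO libraries, as in Etfb, and the adjusted p was 0.135. Of the 22 genes of pyruvate dehydrogenase and the TCA cycle, which take up the acetyl-CoA of beta-oxidation, 0 were called, 18 were higher by sign and the median log2 fold change was 0.12. In 10 of these 22 the 3 Mc4r KO libraries lay above the 3 WT libraries, or 45.5%, against 6 of the 35 fatty acid genes, or 17.1%, and 14.1% of all genes tested, and the difference between these lists was not tested. Gpihbp1, which holds lipoprotein lipase on the endothelium, was among the endothelial markers at 24.7, 28.5 and 27.5 FPKM in WT and at 48.8, 41.9 and 41.4 FPKM in Mc4r KO. Its adjusted p was 0.0434, and its log2 fold change of 0.71 stayed under the threshold of a call.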

How the data were processed

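The authors enriched polyadenylated RNA, prepared libraries with the NEBNext Ultra kit, filtered the read pairs, aligned them with HISAT2 (v2.0.5), counted reads on genes with featureCounts and deposited FPKM per gene and library. Per the submitters' processing notes the build is mm10. Which annotation was used, and whether counting was stranded, is not given in the sources used here. Reads per gene were recovered from the steps in the FPKM, and 100% of the values came out whole (tolerance 0.02 reads). The deposited FPKM were already scaled between libraries, with a median-of-ratios factor of 1.01 in each, and no further scaling was applied.

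The test was limma (version 3.58.1, R 4.3.3) with its trend option on log2(FPKM + 0.1), over genes averaging 0.1 FPKM or more, the 3 Mc4r KO against the 3 WT libraries, without covariates, and with two-sided p-values adjusted by Benjamini-Hochberg over all genes tested. The script was tested on simulated data. Ratios of 2 genes were compared by exact permutation over libraries. The mice are separate animals. The 35 genes and the other lists (further fatty acid oxidation genes, PPAR-responsive genes, regulators, TCA cycle genes and markers of 7 cell types or tissues) were chosen with earlier results of these data known. Values in each library are given for genes with an unadjusted p under 0.05, for the most abundant gene of each role, and for other genes as stated. From the other lists, genes with an adjusted p under 0.05 are named, or else the 2 with the smallest p.

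Of the gene identifiers 99.9% were found in GENCODE M21, from which exon overlaps, words of 50 bases shared with other genes and GC content were taken. As alternatives, the pseudocount was 1 or 0.01, the filter was dropped or raised to 1 FPKM, and the fit was repeated with scaling to the FPKM sum outside the mitochondrial chromosome, quantile normalization, no trend, weights per library, limma voom on the recovered reads, the replicate number as a block, the share of mitochondrial reads as a covariate, protein-coding genes only, no fold threshold, and each library left out. A fit after subtracting, per library, a lowess curve over GC content (span 0.3) was chosen after seeing the data. Plots were made in matplotlib 3.10.9 under Python 3.11.15.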

Additional observations from a re-analysis of the deposited data

How the results depend on the processing

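The precision rests on 3 libraries per genotype, and the number of calls moved with 1 library. Without WT 3, 726 genes were called instead of 83, and without any other library between 7 and 14, while 0 to 3 of the 35 fatty acid genes were called and their median log2 fold change was between 0.085 and 0.21. Over all genes, limma called 44 with a pseudocount of 1, 22 without a filter, 147 with a mean FPKM of at least 1, 41 with scaling outside the mitochondrial chromosome, 49 with quantile normalization, 21 without trend, 435 with weights per library, 214 with voom, 204 among protein-coding genes and 0 with the share of mitochondrial reads as a covariate, where 1891 had an unadjusted p under 0.05. Of the calls, 57 were higher and 26 lower by the analysis reported, against 37 and 28 with the GC trend removed and 16 and 25 with the mitochondrial genes left out of the scaling, under which the median of all genes was -0.19. Of the fatty acid genes, 1 was called with weights and 1 with voom, in each case Fabp3. Their median log2 fold change was -0.019 with quantile normalization, below the -0.014 of all genes. With the share of mitochondrial reads as a covariate it was 0.0072, near the 0.0022 of all genes. It was -0.056 with scaling outside the mitochondrial chromosome. The sign of the log2 fold change differed from that reported in 14 of the 35 genes with that scaling, in 14 with quantile normalization, in 15 with the mitochondrial covariate, in 5 with the GC trend removed, in 1 with weights per library and in 6 without some library. Among the 16 genes given by library under the rule, the changed values were, with that scaling, Acsl1 (-0.15), Cpt2 (-0.035), Acadl (-0.14), Acaa2 (-0.042), Eci2 (-0.0054) and Acot13 (-0.058), with quantile normalization Acsl1 (-0.14), Acadl (-0.084), Acaa2 (-0.023), Eci1 (-0.013) and Acot13 (-0.075), with the mitochondrial covariate Acsl1 (-0.0013), Acadvl (-0.037), Acaa2 (-0.13), Eci1 (-0.11) and Mlycd (-0.21), with the GC trend removed Acads (-0.019), and with single libraries left out Acsl1, which ranged from -0.032 without Mc4r KO 3 to 0.13. Scaling outside the mitochondrial chromosome applies the same factor to all genes of a library. It therefore lowered the log2 fold changes of the 35 genes by a similar amount. Fabp3 went from 0.84 to 0.64 and the median of all genes from -0.011 to -0.19, with the median of the 35 genes still above it. The cause of the other changes was not tested. Fabp3, Slc22a5, Etfa, Acaa1a and Acot2 were higher and Acsl3, Cpt1a, Hadh and Ehhadh lower under each alternative in which they were tested, and the other 26 genes took both signs. With the replicate number as a block 11 genes and 0 of the 35 were called. Deviations of the same-numbered libraries correlated by -0.14, 0.0074 and -0.082 over 11297 genes. These values show no shared deviation, but they cannot tell whether the numbers mark pairs by litter or processing.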
